A study of Oryza sativa with 36 samples.

Results

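Gibberellins are plant hormones that promote stem and leaf elongation, and their level in a tissue depends on enzymes that make them and on enzymes that destroy them. In the plastid, a pair of terpene cyclases and ent-kaurene oxidase build the precursor. In the cytosol, 20-oxidases and 3-oxidases complete the bioactive hormone, and 2-oxidases or the cytochrome P450 EUI1 inactivate it. The bioactive hormone binds the receptor GID1, and the receptor then brings about the destruction of the DELLA protein SLR1, which represses growth. In plants, transcripts of 20-oxidases and 3-oxidases are known to decline and those of 2-oxidases to accumulate when bioactive gibberellin is abundant.

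The transcripts of 10 genes of gibberellin metabolism and signalling, of 55986 genes listed, were followed in leaves of rice (Oryza sativa, japonica, TNG67). The members were CPS1, KS1, KO2, GA20ox1, GA20ox2, GA3ox2, GA2ox3, EUI1, GID1 and SLR1, chosen by their locus identifiers for their known role. RNA-seq had been run on 18 libraries, 2 biological replicates in each of 9 groups. The groups were Callus and Callus+AM, then Ag with AgTi and AgBi, then AMT+Ab with AMT+Hb, then PB, and last Seedling, named as in the labels, which do not spell out AM, Ag, Ti, Bi, AMT, Ab, Hb or PB. Seedling is taken to be the plants raised from seed without a callus phase, and the other 8 groups to be plants regenerated from calli. Of these, Callus is taken to be the group without treatment, and the rest to have been given different treatments. This is a reading of the group names and of the growth and treatment protocols. The construct, the strain and the number of independent lines behind a library were not stated in either. Plants of all groups shared a greenhouse with natural light and were sampled at the tillering stage, so Seedling names an origin and not the age of the leaf. Each extraction used either a column kit or Trizol, and which of these served a given library is not stated.

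The libraries held between 26609812 and 52643973 counts. The 4 Callus and Seedling libraries were the deeper ones, with at least 41582054 counts, and the other 14 held at most 33222427, so depth and group cannot be told apart when 1 of the other 7 groups is set against Callus or Seedling. Levels across libraries are given as CPM, counts scaled to a common library size, after TMM scaling, which uses a trimmed mean of M values, and pairs of values are replicate 1 and then replicate 2. The scaling factors were 0.693 and 0.720 in Seedling and between 0.831 and 1.244 elsewhere. Scaling by total counts instead would move the median log2 fold change of all genes against Seedling to between 0.307 in AgBi and 0.866 in Callus+AM, where TMM puts it between 0 and 0.161. All 10 members passed the filter on low counts. GA3ox2, however, had between 1 and 8 counts in 14 libraries and passed only through the other 4, which belonged to AgBi, AMT+Ab and PB. In a bulk leaf sample, fewer cells that transcribe a gene and less of its RNA per cell cannot be told apart. The leaf label could not be checked against marker genes, since the files pair no identifier with a gene name. A list of 23 further pathway genes was likewise fixed by name, and 0 of them could be paired with an identifier.

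Per transcript length, the signalling genes were the most abundant members and the last biosynthetic step the least. GID1, the receptor, averaged 62.0 ± 13.6 FPKM (fragments scaled to transcript length and library size, SD, n = 18), and SLR1, the DELLA repressor, averaged 46.3 ± 15.9 FPKM. GID1 ranked first among the members in 16 of 18 libraries and SLR1 second in 17. GA2ox3, a 2-oxidase that inactivates gibberellin, averaged 25.7 ± 11.0 FPKM. The early enzymes KO2 and KS1 averaged 11.3 ± 5.14 and 9.36 ± 1.68 FPKM, with CPS1, the enzyme that feeds KS1, lower at 2.75 ± 2.54 FPKM. The 20-oxidases GA20ox2 and GA20ox1 averaged 6.63 ± 4.13 and 3.35 ± 3.24 FPKM. EUI1 averaged 1.26 ± 1.14 FPKM, and GA3ox2, the 3-oxidase that makes bioactive hormone, averaged 0.297 ± 0.399 FPKM and ranked last in 17 libraries. On the same scale the highest library was 2.12-fold above the lowest for KS1, 41.3-fold for CPS1 and, on few counts, 83.5-fold for GA3ox2.

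**Figure D1:**
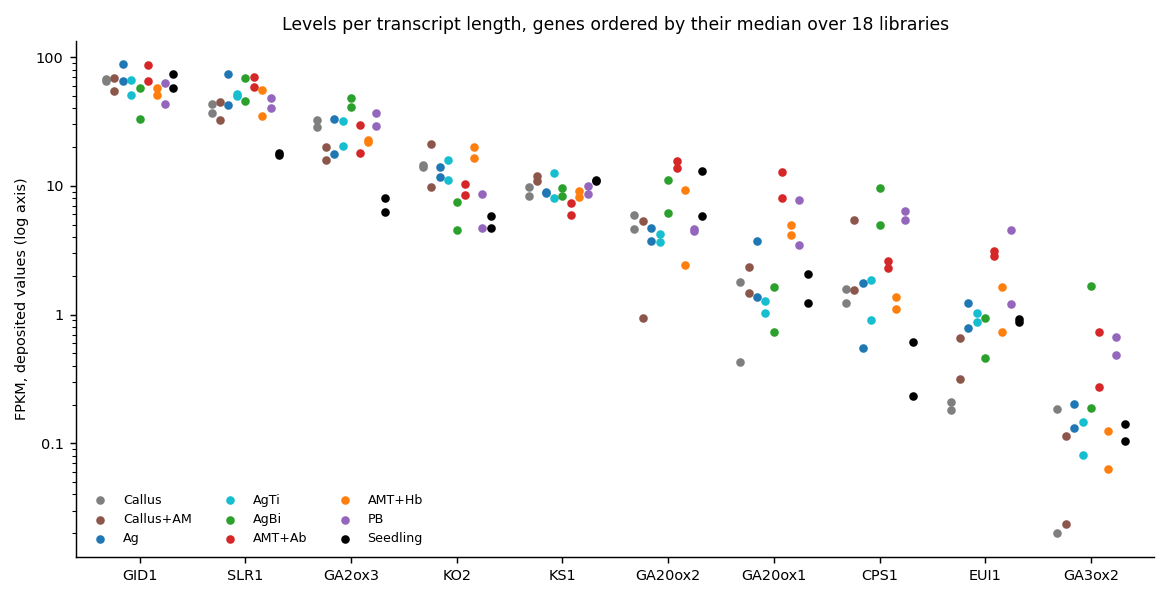
Deposited FPKM values (vertical log axis) of the 10 members, ordered along the horizontal axis by their median over the 18 libraries. Each point is 1 library coloured by group. GID1 and SLR1 lie at the top and GA3ox2 at the bottom, and both Seedling points (black) are the lowest for SLR1 and GA2ox3.

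CPS1, KO2, GA2ox3 and SLR1 were higher in the regenerated groups as a whole than in Seedling, and none of the 10 genes was lower. These were 4 of 10 members, where 37.6% of all 26374 genes tested passed (edgeR adjusted p below 0.05), so the count of members is close to that of genes in general. The median log2 fold change was 0.67 over the members and 0.07 over all genes. The member median includes GA3ox2, at 0.73 on few counts. GA2ox3 and SLR1 were the members that lay above both Seedling libraries in all 16 regenerated libraries, as did 9.23% of all genes. Any difference among the 9 groups was called for 7 members (CPS1, KO2, GA20ox1, GA3ox2, GA2ox3, EUI1 and SLR1) against 63% of all genes. GA3ox2 passed the filter only through groups in which it was high, and without it the count was 6 of 9. Among the 7 groups other than Callus and Seedling it was called for CPS1, KO2, GA20ox1 and EUI1, 4 members against 41.8% of all genes. KS1, GA20ox2 and GID1 passed neither of these tests. The 7-group call of CPS1 ended without AgBi replicate 2 (edgeR adjusted p = 0.0616) or AMT+Hb replicate 1 (edgeR adjusted p = 0.0512), and that of EUI1 without AMT+Ab replicate 1 (edgeR adjusted p = 0.0544) or replicate 2 (edgeR adjusted p = 0.0672). That of KO2 ended without AgBi replicate 2, AMT+Hb replicate 2 or PB replicate 1 and in a fit of these 7 groups alone (edgeR adjusted p 0.0509 to 0.0592).

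Each regenerated group was also set against Seedling. These 8 comparisons use the same Seedling libraries and are therefore not independent of each other. In each of them, leaving out 1 library of either group also lowered the number of all genes called. In Callus, KO2, GA2ox3 and SLR1 were higher and EUI1 was lower, 4 of 10 members against 19.4% of all genes. In Callus+AM, CPS1, KO2, GA2ox3 and SLR1 were higher, 4 of 10 against 31.4%. KO2, GA2ox3 and SLR1 were higher in Ag (3 of 10, against 31% of all genes), in AgTi (3 of 10, against 31.4%) and in AMT+Hb (3 of 10, against 34.8%). CPS1, GA2ox3 and SLR1 were higher in AgBi (3 of 10, against 23.1%) and in PB (3 of 10, against 38.1%). In AMT+Ab, CPS1, GA20ox1, GA2ox3, EUI1 and SLR1 were higher and KS1 was lower, 6 of 10 members against 30.6% of all genes. That count was 2 or 3 without any 1 of the AMT+Ab and Seedling libraries, and 4 without a filter on low counts. The median log2 fold change of the members was 1.72 in AMT+Ab, 1.43 in PB and 0.87 in AMT+Hb. It lay between -0.09 and 0.51 in the other 5 groups. Over all genes the median was 0 to 0.16 in the 8 groups. The member medians include GA3ox2, which passed the filter only through AgBi, AMT+Ab and PB. Its estimates there were 2.80, 1.99 and 2.15.

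**Figure D2:**
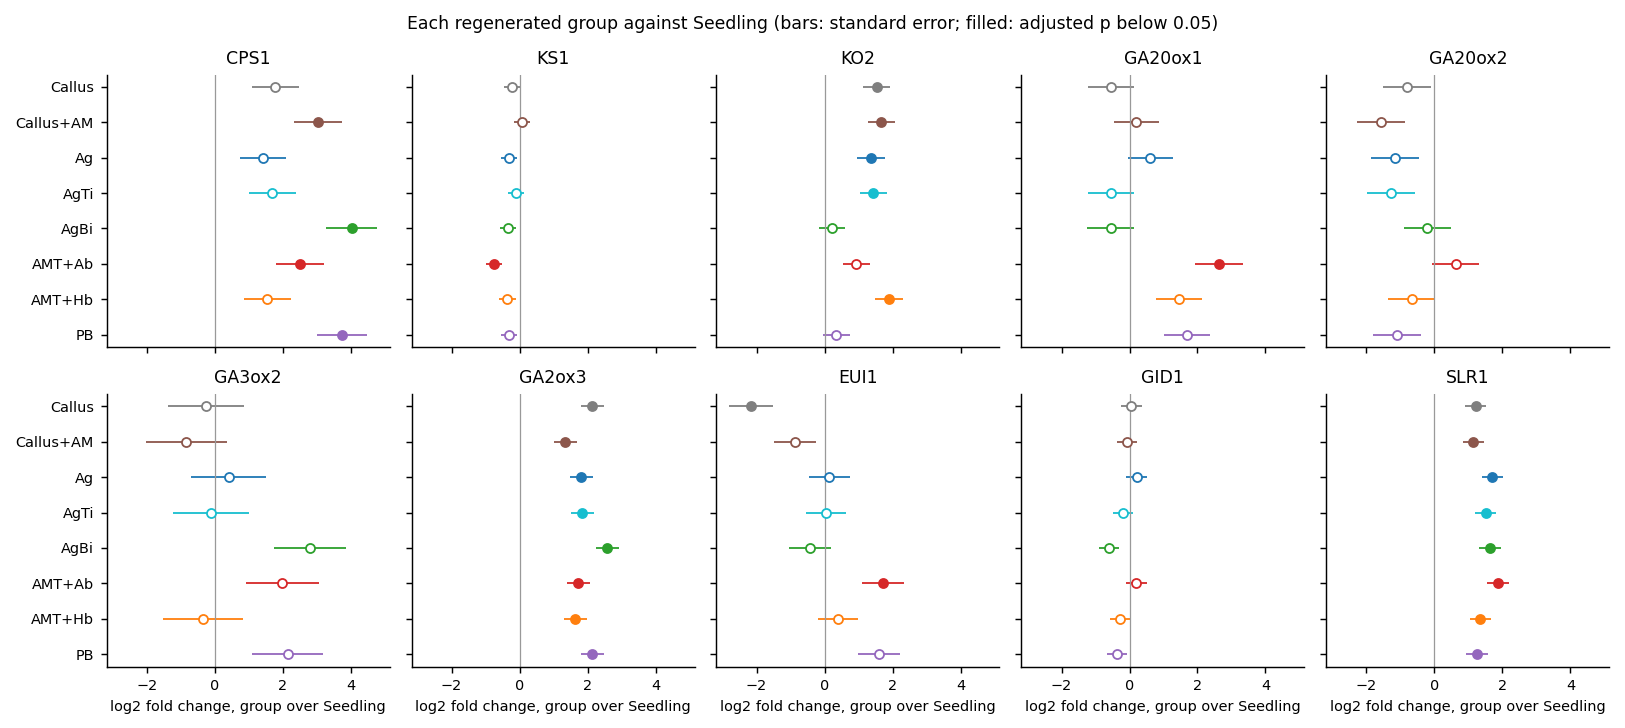
Log2 fold change of each regenerated group over Seedling (horizontal axis) for the 10 members, 1 panel per gene and 1 row per group, from the edgeR fit over 18 libraries. Points are estimates, bars are standard errors, and filled points have an adjusted p below 0.05. GA2ox3 and SLR1 are filled in all 8 rows, GA20ox2, GID1 and GA3ox2 in none, and the GA3ox2 estimates rest on few counts.

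CPS1 (LOC_Os02g17780, chromosome 2) encodes ent-copalyl diphosphate synthase, which commits geranylgeranyl diphosphate to the pathway. Its levels were 4.71 and 3.64 CPM in Callus, 4.49 and 15.6 in Callus+AM, 5.01 and 1.55 in Ag, and 2.54 and 5.34 in AgTi. They were 14.1 and 25.5 CPM in AgBi, 6.61 and 7.27 in AMT+Ab, 3.20 and 3.90 in AMT+Hb, 14.9 and 17.6 in PB, and 1.77 and 0.660 in Seedling. Ag replicate 2 was the regenerated library that fell between the Seedling libraries, and all the others were above both. The 2 AgBi and the 2 PB libraries, with Callus+AM replicate 2, formed the upper end of the range. Over the 8 groups together CPS1 was 5.56-fold higher than in Seedling (log2 fold change 2.47, SE 0.61, edgeR adjusted p = 0.00751). It was higher in AgBi by 4.03 (SE 0.74, edgeR adjusted p = 0.00359) and in PB by 3.74 on the log2 scale (SE 0.73, edgeR adjusted p = 0.00261), and both of these calls were kept in every alternative tried. In Callus+AM it was higher by 3.05 (SE 0.71, edgeR adjusted p = 0.00755) and in AMT+Ab by 2.51 (SE 0.70, edgeR adjusted p = 0.0188). In Callus, Ag, AgTi and AMT+Hb the estimates lay between 1.43 and 1.78 and did not pass the test (edgeR adjusted p 0.0773 to 0.1295), though DESeq2 called CPS1 higher in Callus (DESeq2 adjusted p = 0.0376) and in AgTi (DESeq2 adjusted p = 0.0343). Scaling by total counts called it in all 4 of these groups (edgeR adjusted p 0.00895 to 0.0231).

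The CPS1 level in Seedling rested on 61 counts in replicate 1 and 25 in replicate 2. Without Seedling replicate 2 the call over the 8 groups ended (log2 fold change 1.93, edgeR adjusted p = 0.108), and without Seedling replicate 1 the log2 fold change was 3.36. Across all alternatives its adjusted p ranged between 9.87e-06 and 0.108. The Callus+AM call ended without Seedling replicate 2 (2.45, edgeR adjusted p = 0.0768), without Callus+AM replicate 2 (1.90, edgeR adjusted p = 0.0673) and in a fit of these 2 groups alone (edgeR adjusted p = 0.0855), over a range of 5.80e-05 to 0.0855, and leaving out Seedling replicate 1 gave 3.88 and leaving out Callus+AM replicate 1 gave 3.67. The AMT+Ab call ended without Seedling replicate 2 (1.96, edgeR adjusted p = 0.142), AMT+Ab replicate 1 (edgeR adjusted p = 0.0520) or AMT+Ab replicate 2 (edgeR adjusted p = 0.0774), over a range of 0.00103 to 0.142, and leaving out Seedling replicate 1 gave 3.39 on the log2 scale. Without Seedling replicate 1 the AgBi and PB values were 4.91 and 4.63 on the same log2 scale.

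KS1 (LOC_Os04g52230, chromosome 4), the ent-kaurene synthase that acts on the product of CPS1, was the steadiest member. It ranged from 16.4 to 35.7 CPM over all libraries, with 21.0 and 16.4 CPM in AMT+Ab and 31.3 and 31.5 in Seedling. The other 14 libraries lay between 22.2 and 35.7 CPM, on both sides of Seedling. Both AMT+Ab libraries lay below every other library, and KS1 was lower there than in Seedling by 0.75 on the log2 scale (SE 0.24, edgeR adjusted p = 0.0327). It was lost on leaving out either library of AMT+Ab or of Seedling, without a filter on low counts, in a fit of these 2 groups alone and with scaling by total counts (-0.41), at edgeR adjusted p between 0.0507 and 0.275. Over all alternatives the adjusted p ranged between 0.0123 and 0.275. In the 8 groups together KS1 stood at a log2 fold change of -0.29 (SE 0.17, edgeR adjusted p = 0.198), a sign that scaling by total counts turned to 0.27. With that scaling KS1 was called higher in Callus+AM than in Seedling (0.78, edgeR adjusted p = 0.0340), where the median of all genes was 0.866.

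KO2 (LOC_Os06g37364, chromosome 6) encodes ent-kaurene oxidase, a cytochrome P450 that works on the product of KS1. It stood at 26.0 and 24.3 CPM in Callus, 17.5 and 37.9 in Callus+AM, 20.3 and 24.5 in Ag, and 27.5 and 19.6 in AgTi. The values were 12.8 and 7.41 CPM in AgBi, 15.1 and 18.04 in AMT+Ab, 29.5 and 34.9 in AMT+Hb, 7.64 and 14.5 in PB, and 9.72 and 7.68 in Seedling. Seedling was thus not set apart from AgBi and PB, whose lower libraries were under both Seedling values, and it lay below the other 6 groups. In the 8 groups together KO2 was 2.25-fold higher than in Seedling (log2 fold change 1.17, SE 0.33, edgeR adjusted p = 0.0141). It was higher by 1.89 in AMT+Hb (SE 0.41, edgeR adjusted p = 0.00426), a call kept in every alternative. The increases were 1.67 in Callus+AM (edgeR adjusted p = 0.00888), 1.53 in Callus (edgeR adjusted p = 0.0191), 1.44 in AgTi (edgeR adjusted p = 0.0169) and 1.37 in Ag (edgeR adjusted p = 0.0219), with SE 0.40 each. AMT+Ab stood at 0.93 (SE 0.40, edgeR adjusted p = 0.0919, and 0.0295 in a fit of AMT+Ab and Seedling alone), PB at 0.34 and AgBi at 0.22.

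Several of the KO2 calls ended when 1 library was left out, which left 1 library in its group. The number of all genes called fell too when these libraries were left out. The call over the 8 groups ended without Seedling replicate 1 (edgeR adjusted p = 0.0626) or replicate 2 (edgeR adjusted p = 0.1525), over a range of 0.000917 to 0.1525. The Callus call ended without either Callus or either Seedling library (edgeR adjusted p between 0.0618 and 0.143), over a range of 0.00261 to 0.143. The Ag call ended without either Ag or either Seedling library (edgeR adjusted p between 0.0516 and 0.132), over a range of 0.00180 to 0.132. The AgTi call ended without AgTi replicate 1 (edgeR adjusted p = 0.115) or Seedling replicate 2 (edgeR adjusted p = 0.106), over a range of 0.00111 to 0.115. The Callus+AM call ended without Callus+AM replicate 2 (log2 fold change 1.02, edgeR adjusted p = 0.0971), without Seedling replicate 2 (edgeR adjusted p = 0.0849) and in a fit of these 2 groups alone (edgeR adjusted p = 0.0840), over a range of 0.000576 to 0.0971.

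GA20ox1 and GA20ox2 encode 20-oxidases, which carry gibberellin precursors through successive oxidations, and GA20ox2 is known as the semidwarf locus of rice breeding. GA20ox1 (LOC_Os03g63970, chromosome 3) stood at 3.19 and 0.758 CPM in Callus, 2.55 and 4.06 in Callus+AM, 6.44 and 2.36 in Ag, and 2.14 and 1.78 in AgTi. The remaining values were 1.24 and 2.64 CPM in AgBi, 14.03 and 21.5 in AMT+Ab, 8.67 and 7.18 in AMT+Hb, 5.72 and 12.9 in PB, and 3.63 and 2.11 in Seedling. All AMT+Ab, AMT+Hb and PB libraries were above both Seedling libraries, and AMT+Ab was above every library of the other groups. GA20ox1 was 6.18-fold higher in AMT+Ab than in Seedling (log2 fold change 2.63, SE 0.70, edgeR adjusted p = 0.0156). The call ended without AMT+Ab replicate 2 (2.28, edgeR adjusted p = 0.0909), Seedling replicate 1 (3.08, edgeR adjusted p = 0.0521) or Seedling replicate 2 (2.29, edgeR adjusted p = 0.125), over a range of 0.000657 to 0.125. PB and AMT+Hb stood at 1.70 (SE 0.68, edgeR adjusted p = 0.0650) and 1.47 (SE 0.68, edgeR adjusted p = 0.109) over Seedling. DESeq2 called GA20ox1 higher in PB (DESeq2 adjusted p = 0.0283), and a fit of AMT+Hb and Seedling alone called it higher in AMT+Hb (edgeR adjusted p = 0.0295). The test of any difference among the 9 groups called GA20ox1 (edgeR adjusted p = 0.00674), as did that among the 7 groups (edgeR adjusted p = 0.0128), although without AMT+Ab replicate 2 the test among the 7 groups missed the threshold (edgeR adjusted p = 0.0601).

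GA20ox2 (LOC_Os01g66100, chromosome 1) stood at 6.67 and 8.57 CPM in Callus, 1.33 and 7.63 in Callus+AM, 5.24 and 6.51 in Ag, and 5.74 and 5.21 in AgTi. It stood at 8.51 and 14.5 CPM in AgBi, 22.0 and 18.9 in AMT+Ab, 13.3 and 3.41 in AMT+Hb, 6.25 and 6.03 in PB, and 8.32 and 18.2 in Seedling. AMT+Ab again held the highest libraries, and those of Callus+AM, AMT+Hb and Seedling were 2.19-fold or more apart within the group. No comparison called it with edgeR, and the 8 groups together stood at a log2 fold change of -0.77 against Seedling (SE 0.49, edgeR adjusted p = 0.231). DESeq2 called any difference of GA20ox2 among the 9 groups (DESeq2 adjusted p = 0.0267) and among the 7 groups (DESeq2 adjusted p = 0.0312). The summed FPKM of both 20-oxidases was 23.6 and 26.5 in AMT+Ab, against 7.93 and 14.3 in Seedling.

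GA3ox2 (LOC_Os01g08220, chromosome 1), the 3-oxidase that completes bioactive gibberellin, was close to the limit of detection in most leaves. AgBi held 5 and 47 counts, AMT+Ab 7 and 17, and PB 16 and 21, while Seedling held 5 and 4. In the other 5 groups a library had between 1 and 8 counts, where 3 counts is the floor used for a library. On the CPM scale this was 0.188 and 1.59 in AgBi, 0.281 and 0.735 in AMT+Ab, 0.474 and 0.660 in PB, and 0.145 and 0.106 in Seedling. On that scale all libraries of these 3 regenerated groups lay above Seedling, though AgBi replicate 1 and Seedling replicate 1 held the same 5 counts. AgBi replicate 2 held the highest CPM of all libraries. GA3ox2 passed the filter only through libraries of these groups, so the filter itself favoured a difference among the groups. No p-value of GA3ox2 is given for that reason.

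GA2ox3 (LOC_Os01g55240, chromosome 1), the 2-oxidase among the members, had the smallest p of the 10 in the test among the 9 groups (edgeR adjusted p = 0.00361). It stood at 54.8 and 47.8 CPM in Callus, 26.0 and 32.9 in Callus+AM, 53.5 and 28.2 in Ag, and 50.2 and 33.2 in AgTi. The values were 77.1 and 61.9 CPM in AgBi, 29.4 and 47.2 in AMT+Ab, 35.6 and 36.5 in AMT+Hb, 45.3 and 56.7 in PB, and 10.2 and 13.0 in Seedling. Every regenerated library was thus above both Seedling libraries, and the AgBi libraries were above those of all other groups. Over the 8 groups together GA2ox3 was 3.74-fold higher than in Seedling (log2 fold change 1.90, SE 0.29, edgeR adjusted p = 0.000319), which was kept in all 26 alternatives at 1.75 to 2.45. By group the log2 fold change ran from 1.34 in Callus+AM (SE 0.33, edgeR adjusted p = 0.0102) to 2.58 in AgBi (SE 0.35, edgeR adjusted p = 0.000869). In Callus it was 2.14 (SE 0.34, edgeR adjusted p = 0.00141). The calls of 7 groups were kept in every alternative, and that of Callus+AM ended without Seedling replicate 1 (edgeR adjusted p = 0.0891), without Callus+AM replicate 2 (edgeR adjusted p = 0.0549) and in a fit of these 2 groups alone (edgeR adjusted p = 0.0606), over a range of 0.000428 to 0.0891. Among the 7 groups GA2ox3 did not pass the test (edgeR adjusted p = 0.0848), which DESeq2 called (DESeq2 adjusted p = 0.0474).

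EUI1 (LOC_Os05g40384, chromosome 5) encodes a cytochrome P450 that inactivates gibberellin by epoxidation and is known from the elongated uppermost internode of its rice mutant. It stood at 0.411 and 0.358 CPM in Callus, 1.26 and 0.614 in Callus+AM, 2.32 and 1.501 in Ag, and 1.90 and 1.68 in AgTi. The other values were 0.866 and 1.69 CPM in AgBi, 5.53 and 5.84 in AMT+Ab, 3.17 and 1.38 in AMT+Hb, 2.22 and 8.29 in PB, and 1.80 and 1.66 in Seedling. Unlike GA2ox3, EUI1 in Seedling lay in the middle of the range, with Callus below every other group and AMT+Ab above all but PB replicate 2. In Callus it was 4.47-fold lower than in Seedling (log2 fold change -2.16, SE 0.64, edgeR adjusted p = 0.0331). In AMT+Ab it was 3.28-fold higher than in Seedling (log2 fold change 1.71, SE 0.61, edgeR adjusted p = 0.0494). PB stood at 1.60 (SE 0.61, edgeR adjusted p = 0.0534; DESeq2 adjusted p = 0.0289), with its libraries 3.73-fold apart. The 8 groups together stood at 0.05 against Seedling (SE 0.46, edgeR adjusted p = 0.959). The test among the 9 groups called EUI1 (edgeR adjusted p = 0.00491) under every alternative.

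The EUI1 calls against Seedling ended when any 1 library of either group was left out, which left 1 library in that group. The 2 libraries lay close together in each of Callus, AMT+Ab and Seedling. In both comparisons the number of all genes called fell as well. Each of the 2 Callus libraries held 17 counts of EUI1, and its call ended without either Callus or either Seedling library (edgeR adjusted p between 0.106 and 0.160). It also ended with scaling by total counts (-1.68, edgeR adjusted p = 0.0749) and with limma on log2(FPKM + 1) (-0.67, limma adjusted p = 0.229) or log2(FPKM + 0.1) (-1.77, limma adjusted p = 0.0558), over a range of 0.00779 to 0.229. The AMT+Ab call ended without any 1 of the 2 AMT+Ab and 2 Seedling libraries (edgeR adjusted p 0.118 to 0.208) and in 4 other alternatives, over a range of 0.00513 to 0.208.

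GID1 and SLR1 are the receptor and the repressor of the pathway, and they differed from each other in these leaves. GID1 (LOC_Os05g33730, chromosome 5) ranged from 68.7 to 185 CPM in the regenerated libraries, with a median of 131 CPM, and stood at 158 and 120.3 CPM in Seedling. The Seedling libraries lay within the range of the others, the lowest value belonged to AgBi replicate 1, and no comparison called GID1. In the 8 groups together it stood at a log2 fold change of -0.13 (SE 0.22, edgeR adjusted p = 0.673), which scaling by total counts turned to 0.43. With that scaling GID1 was called higher in Ag than in Seedling (0.85, edgeR adjusted p = 0.0278), where the median of all genes was 0.755, and lower in AgBi than in Ag (-1.14, edgeR adjusted p = 0.0109), where that median was -0.351. SLR1 (LOC_Os03g49990, chromosome 3) stood at 109 and 93.3 CPM in Callus, 80.2 and 112 in Callus+AM, 181 and 104 in Ag, and 124 in both libraries of AgTi. It stood at 111 and 159 CPM in AgBi, 146 and 170.0 in AMT+Ab, 137 and 85.3 in AMT+Hb, 113 and 95.0 in PB, and 44.7 and 42.5 in Seedling. Every regenerated library was above both Seedling libraries.

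SLR1 was 2.75-fold higher in the 8 groups together than in Seedling (log2 fold change 1.46, SE 0.26, edgeR adjusted p = 0.00110), which was kept in all 26 alternatives at 1.40 to 2.02. By group the log2 fold change ran from 1.14 in Callus+AM (SE 0.31, edgeR adjusted p = 0.0167) to 1.86 in AMT+Ab (SE 0.32, edgeR adjusted p = 0.00204), and it was 1.22 in Callus (SE 0.31, edgeR adjusted p = 0.0179). The calls in Ag, AgTi, AgBi and AMT+Ab were kept in every alternative. That in AMT+Hb ended without AMT+Hb replicate 1 (edgeR adjusted p = 0.0788, over a range of 0.000303 to 0.0788), and that in PB without PB replicate 1 (edgeR adjusted p = 0.0556) or Seedling replicate 2 (edgeR adjusted p = 0.0549), over a range of 0.000695 to 0.0556. Leaving out Callus replicate 1, Seedling replicate 1 or Seedling replicate 2 ended the call in Callus (edgeR adjusted p 0.0730 to 0.111), over a range of 0.00181 to 0.111. The Callus+AM call ended without Callus+AM replicate 2, without either Seedling library and in a fit of these 2 groups alone (edgeR adjusted p 0.0689 to 0.102), over a range of 0.000619 to 0.102. SLR1 passed the test among the 9 groups (edgeR adjusted p = 0.0137), though not without Seedling replicate 1 (edgeR adjusted p = 0.0568) or replicate 2 (edgeR adjusted p = 0.0659), and it did not pass that among the 7 groups (edgeR adjusted p = 0.353).

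**Figure D3:**
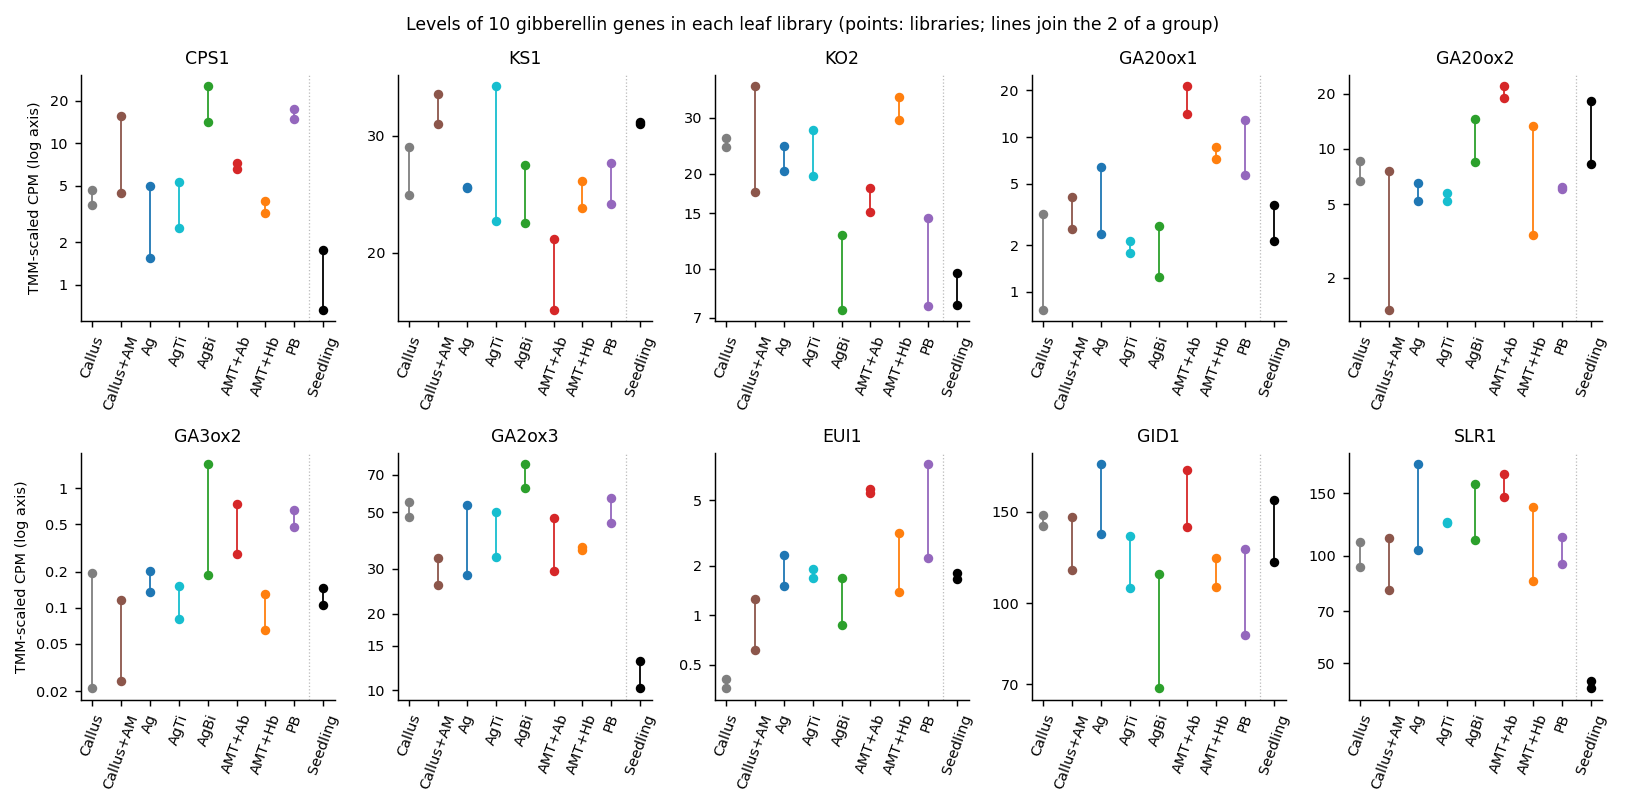
TMM-scaled CPM (vertical log axes) of the 10 members in each of the 18 leaf libraries, 1 panel per gene and 1 column per group, with Seedling on the right of the dotted line. Points are libraries and lines join the 2 of a group. Both Seedling points lie below all others for GA2ox3 and SLR1, both AMT+Ab points are at the top for GA20ox1 and GA20ox2, and both Callus points are at the bottom for EUI1.

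Ordered by group means, most neighbours were not separated by their libraries. GID1 had 0 of 8 neighbouring pairs of groups whose libraries did not overlap, CPS1, KS1, GA3ox2, EUI1 and SLR1 had 1, KO2, GA20ox1 and GA20ox2 had 2, and GA2ox3 had 3. Over all 26374 genes tested the median was 2 of 8 pairs, 14.5% of genes had 0 such pairs, 61.3% had 1 or 2 and 24.1% had 3 or more. For GA2ox3 the breaks lay between AgBi (69.5 ± 10.8 CPM) and Callus (51.3 ± 4.90), between AMT+Hb (36.1 ± 0.59) and Callus+AM (29.4 ± 4.91), and between Callus+AM and Seedling (11.6 ± 2.02; SD, n = 2 each). For SLR1 the break lay between Callus+AM (96.1 ± 22.5 CPM) and Seedling (43.6 ± 1.55). For EUI1 it lay between Callus+AM (0.938 ± 0.458 CPM) and Callus (0.384 ± 0.0373). For GA20ox1 the breaks set AMT+Ab (17.7 ± 5.25 CPM) above PB (9.33 ± 5.11), and AMT+Hb (7.93 ± 1.05) above Ag (4.40 ± 2.88).

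The 7 groups other than Callus and Seedling were also set against Callus. EUI1 was 5.78-fold higher in them (log2 fold change 2.53, SE 0.57, edgeR adjusted p = 0.0135), 1 of 10 members against 14.5% of all genes. Every library of the 7 groups was above both Callus libraries, from 0.614 to 8.29 CPM against 0.411 and 0.358 CPM in Callus, as were 4.9% of all genes. The call ended without Callus replicate 1 (2.63, edgeR adjusted p = 0.132) or Callus replicate 2 (2.43, edgeR adjusted p = 0.147), over a range of 4.32e-05 to 0.147. GA20ox1 stood at 1.33 in the same direction (SE 0.56, edgeR adjusted p = 0.125; DESeq2 adjusted p = 0.0413). The remaining members stood between -0.41 for KO2 and 1.11 for GA3ox2.

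CPS1 was also higher in AgBi than in Ag, by 2.60 on the log2 scale (SE 0.69, edgeR adjusted p = 0.0174). This was 1 of 10 members against 25.3% of all genes. Its libraries held 14.1 and 25.5 CPM in AgBi, against 5.01 and 1.55 CPM in Ag, and did not overlap, as for 57.9% of all genes. The call ended without Ag replicate 2 (1.99, edgeR adjusted p = 0.1001) or AgBi replicate 2 (2.10, edgeR adjusted p = 0.0997), over a range of 0.000526 to 0.1001, and the value was 3.66 without Ag replicate 1. KO2 stood on the other side, at -1.15 (SE 0.40, edgeR adjusted p = 0.0517), with 12.8 and 7.41 CPM in AgBi against 20.3 and 24.5 CPM in Ag. It was called lower by DESeq2 (adjusted p = 0.0299), by limma on log2(FPKM + 1) (adjusted p = 0.0478) and without a filter on low counts (edgeR adjusted p = 0.0392). GID1 stood at -0.81 (SE 0.30, edgeR adjusted p = 0.0641).

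PB differed from the mean of AMT+Ab and AMT+Hb in both of these early enzymes. CPS1 was higher in PB by 1.71 (SE 0.54, edgeR adjusted p = 0.0293) and KO2 was lower (log2 fold change -1.07, SE 0.36, edgeR adjusted p = 0.0371), 2 of 10 members against 33.3% of all genes. CPS1 held 14.9 and 17.6 CPM in PB, against 6.61 and 7.27 CPM in AMT+Ab and 3.20 and 3.90 CPM in AMT+Hb. KO2 held 7.64 and 14.5 CPM in PB, against 15.1 and 18.04 CPM in AMT+Ab and 29.5 and 34.9 CPM in AMT+Hb. On the CPM scale the libraries did not overlap for either gene, as for 51% of all genes. On the FPKM scale those of KO2 overlapped, with 8.60 in PB replicate 2 against 8.49 in AMT+Ab replicate 1. The CPS1 call ended without any 1 of the 6 libraries of PB, AMT+Ab and AMT+Hb (edgeR adjusted p 0.0569 to 0.127), over a range of 0.00209 to 0.127. The KO2 call ended without any 1 of these except PB replicate 2 (edgeR adjusted p 0.0533 to 0.304, log2 fold change -0.68 without PB replicate 1), and with scaling by total counts (edgeR adjusted p = 0.0511), over a range of 0.0156 to 0.304.

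The other comparisons between regenerated groups gave no call among the members in the fit of all 18 libraries with TMM scaling. In Callus+AM against Callus, 0 of 10 members passed against 0.792% of all genes, and 1 member, GA2ox3 at a log2 fold change of -0.80, had an unadjusted edgeR p below 0.05. In Ag against Callus+AM, 0 of 10 passed against 0% of all genes, with 1 member, CPS1 at -1.62, at an unadjusted edgeR p below 0.05. In AgTi against Ag, 0 of 10 passed against 0% of all genes, with 0 members at an unadjusted p below 0.05. In AMT+Ab against AMT+Hb, 0 of 10 passed against 6.42% of all genes, with 2 members, KO2 at -0.96 and EUI1 at 1.32, at an unadjusted edgeR p below 0.05. DESeq2 and limma each called 0 members in these 4 comparisons. KO2 was called lower in AMT+Ab than in AMT+Hb in a fit of these 2 groups alone (-0.99, edgeR adjusted p = 0.0483). It was also called lower there with scaling by total counts (-1.31, edgeR adjusted p = 0.0498), where the median of all genes was -0.343. When a difference between AgTi and Ag was simulated, 0 of 50 genes with a 2-fold change and 13 of 50 with a 4-fold change were recovered by edgeR.

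Ratios of FPKM within a library need no scaling between libraries, and 5 pairs of members were formed with their levels known, so these are descriptions. The ratio of repressor to receptor transcript, SLR1 over GID1, ranged from 0.568 to 1.39 in the regenerated libraries, with a median of 0.799, against 0.243 and 0.303 in Seedling. AgBi held the highest ratios, 1.39 and 1.20, and was the group in which SLR1 exceeded GID1 in both libraries. The ratio of inactivating to synthesising oxidase, GA2ox3 over GA20ox2, ranged from 1.16 to 16.9 with a median of 5.93, against 1.06 and 0.622 in Seedling. AMT+Ab, where GA20ox2 was highest, held 1.16 and 2.17. CPS1 over KS1 ranged from 0.0617 to 1.14 with a median of 0.180, against 0.0562 and 0.0208 in Seedling. These 3 ratios lay above both Seedling libraries in all regenerated libraries, though CPS1 over KS1 and GA2ox3 over GA20ox2 did so narrowly. The lowest GA2ox3 over GA20ox2, 1.16 in AMT+Ab replicate 1, stood against 1.06 in Seedling replicate 1. How many pairs of other genes lay above Seedling in all regenerated libraries was not counted. KO2 over KS1 ranged from 0.467 to 2.22, against 0.533 and 0.427 in Seedling, and GA20ox1 over GA20ox2 from 0.0722 to 1.75, against 0.355 and 0.0944, so that both of these overlapped.

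**Figure D4:**
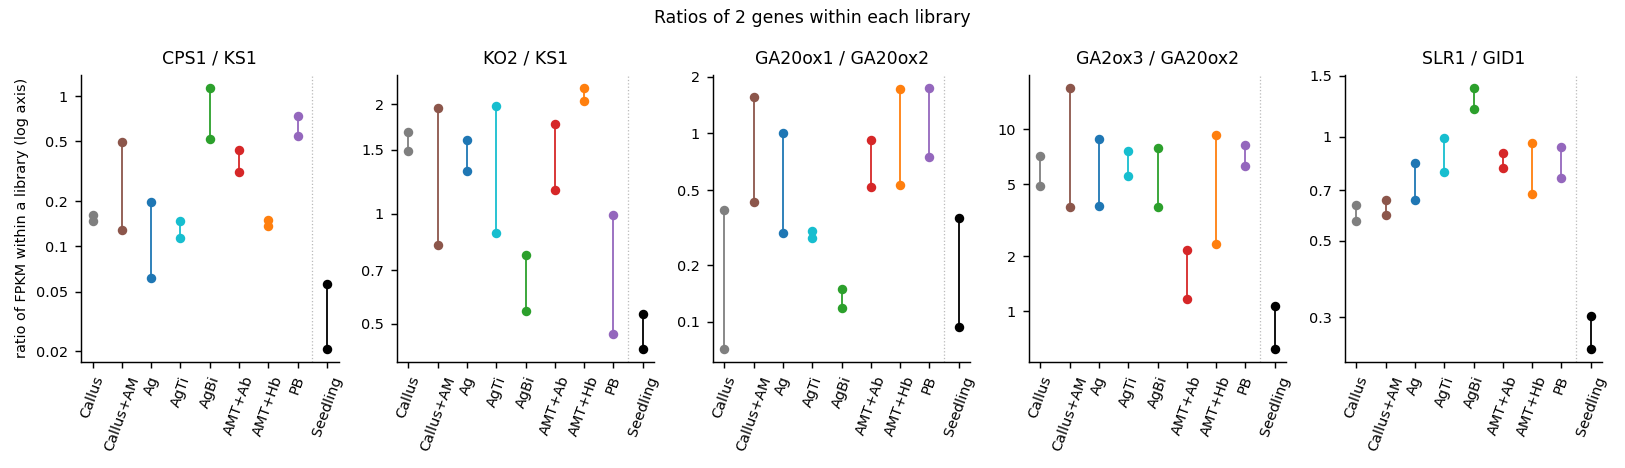
Ratios of the FPKM of 2 members within each library (vertical log axes), 1 panel per pair and 1 column per group, with Seedling on the right of the dotted line. Points are libraries and lines join the 2 of a group. Seedling lies below every regenerated library for CPS1/KS1, GA2ox3/GA20ox2 and SLR1/GID1 and overlaps them for the other 2 ratios.

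The genes whose pattern over the 18 libraries was closest to that of GA2ox3 were LOC_Os03g44800 on chromosome 3 and LOC_Os09g19970 on chromosome 9. Closeness was the root mean square difference of log2 CPM after centring each gene on its mean, over 17926 genes with a mean log2 CPM of at least 1. It was 0.32 for LOC_Os03g44800 and 0.38 for LOC_Os09g19970, against a median of 0.96 over all of these genes. LOC_Os03g44800 held 12.04 and 12.2 CPM in Seedling and at most 59.0 CPM elsewhere. LOC_Os09g19970 held 6.24 and 16.2 CPM in Seedling and at most 102 CPM elsewhere. Among the members ranked, SLR1 came closest to GA2ox3, at 0.48 and place 24, and GID1 followed at place 6351. EUI1 and GA3ox2 fell below the level cut and were not ranked. The measure is not scaled to a gene's spread, so a gene that varies little can come before one that varies more.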

How the data were processed

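RNA-seq values of 18 rice leaf libraries were used, while the 18 bisulfite samples are not analysed here. For these libraries the authors deposited estimated counts in 1 table and FPKM in another. Per the submitters' processing notes, TopHat, Cuffnorm and Cuffdiff were involved, with no version named. The build, the annotation and whether strand was used were not given in the sources used here, so reads of near-identical copies, overlapping or antisense genes could not be told apart. Counts were rounded, since 0.707% of those deposited (0 of the members' 180) were not whole numbers. All 18 columns of each table matched a sample.

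Counts were tested with edgeR 4.0.16 in R 4.3.3: filterByExpr by group left 26374 genes, TMM scaling, and a robust quasi-likelihood fit of all 18 libraries with a coefficient per group (9 residual degrees of freedom, common dispersion 0.146). There were 18 comparisons, adjusted by the Benjamini-Hochberg method over all genes tested within each, with a threshold of 0.05. Pooled groups had equal weights. Standard errors came from the F statistics. P-values rest on the spread between 2 libraries a group.

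Gene names are those given with the member list. The RefSeq gene table of assembly ASM3414082v1 holds 7 of the 10 names, each on the chromosome of its identifier, but pairs none of the files' identifiers with a name, and no sequence is shown. All members are named; beyond them, the rule named the 2 genes most like the member with the smallest p among the 9 groups. The members, lists and ratios were chosen with earlier results of these data known.

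Alternatives were relative log expression factors, no low-count filter, DESeq2 1.42.0, limma 3.58.1 on log2(FPKM + 1) and log2(FPKM + 0.1) for the 20907 genes averaging 1 FPKM or more, a fit of only the groups compared, a replicate block, adjustment over all comparisons together, and leaving out each library. A remaining lone library was assumed to vary like the other groups. Total count scaling was added after seeing the data. On counts simulated for AgTi against Ag over 26374 genes, edgeR recovered 0 of 50 genes changed 1.5-fold, 0 of 50 changed 2-fold, 13 of 50 changed 4-fold and 24 of 50 changed 8-fold, with 2 false calls. The 2 libraries of a group differed beyond counting noise in every group (chi-square per degree of freedom 51.7 to 282), so none was counted as a duplicate.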

Additional observations from a re-analysis of the deposited data

How the results depend on the processing

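Of 48 calls of a member in a comparison, 21 were kept in every alternative tried for them. The 48 calls include that of GA3ox2 among the 9 groups, which was not kept throughout. The 821 alternative values of these calls held 718 that kept direction and threshold, 103 that kept the direction but missed the threshold, and 0 that changed direction. Those kept throughout include all calls of GA2ox3 against Seedling except that in Callus+AM.

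The number of members called moved beyond 1.5 times the reported one under these settings. With DESeq2 it was 7 among the 7 groups, 5 in PB against Seedling, 2 in the 7 groups against Callus and 2 in AgBi against Ag. Without a low-count filter and with limma at either pseudocount it was 2 in AgBi against Ag. In a fit of only the groups compared it was 0 in Callus+AM against Seedling and 1 in AMT+Ab against AMT+Hb. With scaling by total counts, which was chosen after seeing the data and moves the median of all genes against Seedling upward, it was 5 in Ag, 5 in AMT+Hb and 6 in PB against Seedling, 3 in AgBi against Ag, 1 in AMT+Ab against AMT+Hb and 1 in PB against both AMT groups. The cause was not tested. Leaving out 1 library, as counted next, also changed how many of all genes were called. This number fell without either Seedling library for the 8 groups together, and without either Callus library for the 7 groups against Callus. It fell without any 1 library of the groups compared in AgBi against Ag and in PB against both AMT groups. Among the 7 groups it fell except without either Callus+AM library. Whether members lost calls more often than other genes was not tested.

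Leaving out 1 library gave 2 to 5 members among the 7 groups, 2 to 5 in the 8 groups against Seedling, 1 to 2 in Callus, 1 to 4 in Callus+AM and 2 to 3 in AMT+Ab against Seedling, 0 to 1 in the 7 groups against Callus, 0 to 3 in AgBi against Ag, and 0 to 1 in PB against both AMT groups.

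Replicate numbers did not pair the libraries: the deviations of same-numbered libraries correlated at -0.47 to 0.26 over 36 pairs of groups (median -0.03), above 0.1 in 9. With the replicate block, 46 of the 48 member calls were made, all among the 48; those of GA3ox2 among the 9 groups and EUI1 in AMT+Ab (edgeR adjusted p = 0.0646) were not. The block left 6 members called among the 9 groups and 5 in AMT+Ab against Seedling.

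Depth limits GA3ox2 and EUI1 most, with as few as 1 and 17 counts in a library. Groups of 2 libraries allow no test for an outlying library.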
